A study of Mus musculus with 12 samples.

Results

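Mouse DC2.4 cells treated with TGF-beta were compared with unstimulated DC2.4 cells for the expression of genes that build, trim and break down glycans. DC2.4 is an immortalized murine dendritic cell line bought from a supplier, so all samples come from cells of a single line. The labels mark the unstimulated samples as control and give no treatment for them. The treated cells were collected after 4 days of TGF-beta, at a dose that 1 protocol gives as 2.5 ng/ml and another as 10 ng/ml. The comparison takes 6 of the 12 samples of the series, chosen by their titles, with 3 deposited files in each group. The third file of each group holds a scaled mean of the other files, so 4 samples were separately measured, 2 unstimulated and 2 treated. Nothing in the labels says that these came from separate cultures, so a p-value here reflects spread among the 4 samples that may be only technical. RNA came from whole cultures, in which more expressing cells and more RNA per cell cannot be told apart.

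Glycans are assembled stepwise in the endoplasmic reticulum (ER) and Golgi by enzymes that each add or remove a particular sugar. N-glycans are trimmed, then branched by the Mgat enzymes, extended with galactose and N-acetyllactosamine, and capped with sialic acid. Mucin-type O-glycans are started by GalNAc transferases (Galnt) and extended from a core. On dendritic cells these structures are read by lectins such as galectins and siglecs. TGF-beta signals through SMAD proteins and is known to dampen dendritic cell activation.

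Messenger RNA was measured by SYBR Green real-time PCR on a plate of 96 wells, with 84 glycosylation genes, 5 reference wells (H01 to H05) and 7 control wells. The readout is the threshold cycle (Ct), the cycle at which fluorescence passes 0.2 in the file headers, and a lower Ct means more template. Of the 84 genes, 66 and 72 had a Ct under 35 in unstimulated replicates 1 and 2, and 72 and 76 in TGF-beta replicates 1 and 2. The mean Ct of the 5 reference wells was 20.6 in unstimulated and 22.1 in treated replicate 1, and 17.0 in replicate 2 of both groups. Template was thus lower in replicate 1 of both groups, and lowest in the treated sample. By the manufacturer's usual layout, wells H07 to H09 monitor reverse transcription and wells H10 to H12 the PCR itself. Their mean Ct values lay much closer together, at 22.5 and 22.1 (unstimulated) and 23.2 and 22.0 (treated) for the first set, and at 19.1, 18.7, 19.2 and 18.5 for the second. The part of template amount in the results was not tested. No marker of dendritic cells, of other cell types or of the TGF-beta response is on the panel (0 of 29 listed), so neither the cell identity nor the response to treatment could be checked here.

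**Figure D1:**
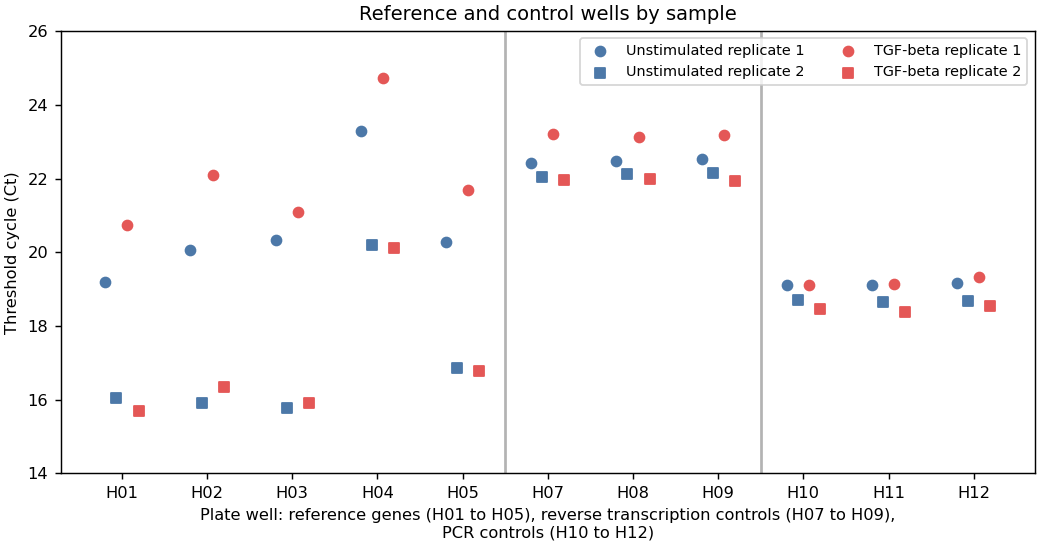
Threshold cycle of each reference and control well in the 4 separately measured DC2.4 samples, with well positions on the x axis and Ct in cycles on the y axis. Blue stands for unstimulated, red for TGF-beta, circles for replicate 1 and squares for replicate 2. Reference wells separate by replicate number, whereas wells H07 to H09 lie between 21.9 and 23.2 and wells H10 to H12 between 18.4 and 19.3.

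The relative level of a gene was its distance in cycles from the average of the 5 reference wells, signed so that more RNA gives a higher log2 value. Any Ct beyond 35, and any blank well, was entered as 35. Each reference well was also set against the mean of the other 4. The H02 well (B2m in the manufacturer's usual layout) stood lower with TGF-beta by that measure, with log2 differences of -0.73 between both first replicates and -0.54 between both second replicates. The H03 well (Gapdh in that layout) differed by 0.84 and -0.13, and the Actb well H01 by -0.14 and 0.46. The H04 and H05 wells differed by at most 0.11. None of the 5 wells separated the groups (exact permutation test, two-sided, p between 0.667 and 1.0, where 2 samples against 2 cannot go below 0.33).

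Several galactosyl, branching and O-glycan initiating enzymes were higher in TGF-beta treated cells, but with 2 samples a group no gene passed the adjusted threshold. Of 69 genes tested, 0 (0%) had an adjusted p under 0.05 (limma with Benjamini-Hochberg adjustment), and 11 (15.9%) had an unadjusted p under 0.05, of which 10 were higher (14.5%) and 1 lower (1.45%) with TGF-beta. The count at the adjusted threshold was 8 without TGF-beta replicate 1 and 16 without TGF-beta replicate 2, and stayed at 0 without either unstimulated sample. Each of these fits leaves 1 sample in a group, which is then assumed to vary like the 2 samples of the other group, so a higher count is no sign of firmer calls. The count at the unadjusted threshold was 21 without TGF-beta replicate 2, and 6 and 5 without unstimulated replicates 1 and 2. The groups did not overlap in 27 genes (39.1%), with the treated samples on the higher side in 20 (29%) and on the lower side in 7 (10.1%). If all orders of the 4 samples were equally likely, unchanged genes would separate this way at a rate of about 0.33, the floor of the exact permutation test above. The share of 39.1% is close to that rate. Replicates of the same number deviated together (r = 0.64 across genes), so that rate may not hold here and the share cannot be judged against it. With 2 samples a group, groups that do not overlap are weak evidence of a change, here and for the single genes below. With the mean of the panel genes as the reference, 8 genes were higher and 8 lower at the unadjusted threshold.

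Samples were also set side by side by their order within the group, the first unstimulated with the first treated and the second with the second, here called pairs. The labels do not say that these numbers mark a shared culture or day. The difference within a pair was above 1 log2 unit in both pairs in 14 genes (20.3%) and below -1 in both in 3 genes (4.35%). In 37 of the 69 tested genes it stayed within 1 unit in both pairs. In 40 of the 69 the difference between replicates 2 and 1, averaged over both groups, was larger in size than the difference between the groups. The sign was the same in both pairs in 51 of the 69 genes, positive in 36 and negative in 15. The pairs differed by more than 2 units in 12 genes, with pair 1 higher in 8 and pair 2 higher in 4. The median difference over all tested genes was 0.34 in pair 1, 0.18 in pair 2 and 0.29 in the fit.

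**Figure D2:**
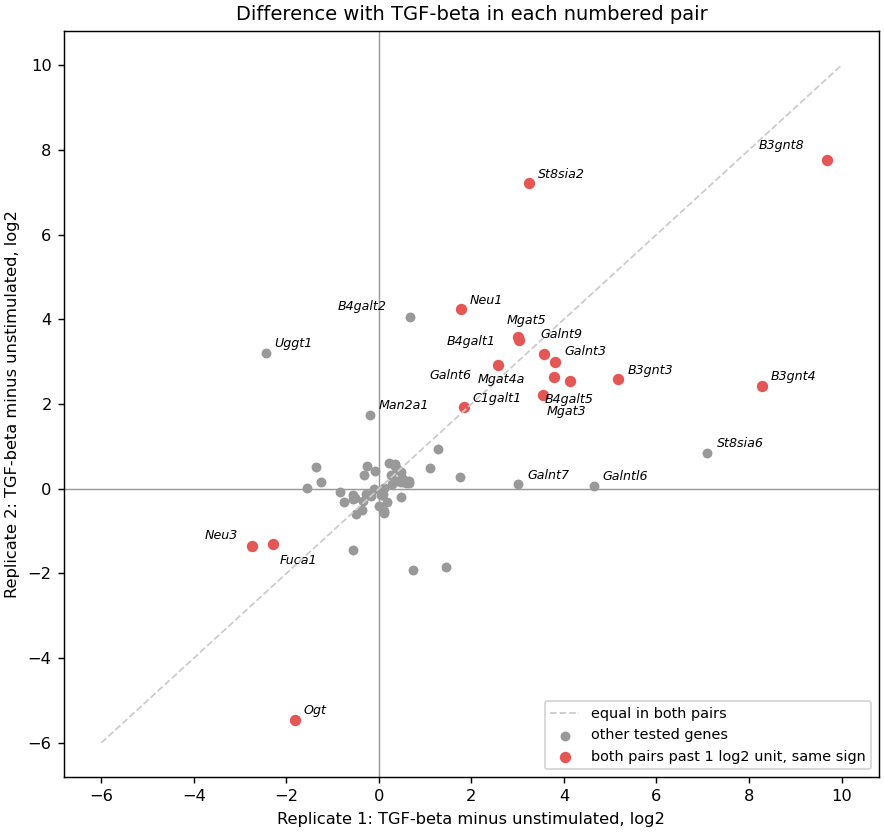
Difference between TGF-beta and unstimulated cells for each of 69 tested genes, in log2 units, in pair 1 (x axis) and pair 2 (y axis). Each point is a gene, red where both pairs passed 1 log2 unit with the same sign (14 higher, 3 lower), and the dashed line marks equal differences. Most genes cluster near 0, B3gnt8 lies at 9.69 and 7.77, and Uggt1 lies at -2.45 and 3.21.

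The 5 genes with the smallest p were B4galt1, Galnt3, Mgat5, Galnt6 and Mgat4a, each with an adjusted p of 0.053 (limma, n = 2 per group). With a single reference well their adjusted p (limma) ran from 0.063 with H05 to 0.33 with H03. With the mean of the panel genes it was 0.18. Their log2 fold changes ran from 2.47 to 3.78 (B4galt1), 2.59 to 3.9 (Galnt3) and 2.49 to 3.8 (Mgat5) over the choices of reference. Those of Galnt6 and Mgat4a ran from 1.95 to 3.26 and from 2.4 to 3.71. B4galt1 encodes the main enzyme that adds galactose to N-glycan branches. Its relative log2 levels were -3.60 and -3.85 in unstimulated cells and -0.56 and -0.34 in treated cells. The groups were far apart and each was tight. The log2 fold change was 3.27 ± 0.42 (moderated SE), or 9.67-fold. Here and below, ± gives the moderated SE of limma, which draws on the spread of all tested genes as well as that of the gene. Galnt3 and Galnt6 are close relatives that place the first GalNAc on serine and threonine. Galnt3 stood at -6.14 and -5.33 unstimulated and at -2.33 and -2.35 treated, a log2 fold change of 3.40 ± 0.49. Galnt6 stood at -4.93 and -5.35 unstimulated and at -2.36 and -2.42 treated, a log2 fold change of 2.75 ± 0.43. Both genes thus had nearly equal levels in the 2 treated samples. Mgat4a and Mgat5 add the branches that turn a biantennary N-glycan into a more highly branched structure. Mgat4a stood at -7.08 and -6.33 unstimulated and at -3.31 and -3.70 treated, a log2 fold change of 3.20 ± 0.50. Mgat5 stood at -7.62 and -8.41 unstimulated and at -4.62 and -4.82 treated, a log2 fold change of 3.29 ± 0.49. Relative to the median of all tested genes these differences were 2.98 for B4galt1, 3.11 for Galnt3, 2.46 for Galnt6, 2.91 for Mgat4a and 3.0 for Mgat5.

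The promoters of these 5 genes are shown because these genes had the smallest p under a cytokine whose SMAD proteins bind short DNA motifs. Each sequence runs 5′ to 3′ on the gene's strand, over the promoter window around the first start listed in RefSeq (GRCm38.p6), most of it upstream. Capitals mark CAGAC or its reverse complement GTCTG. B4galt1 lies at chr4:40853935-40854234 (minus strand), Galnt3 at chr2:66124744-66125043 (minus), Mgat5 at chr1:127204736-127205035 (plus), Galnt6 at chr15:100729327-100729626 (minus) and Mgat4a at chr1:37540967-37541266 (minus).
B4galt1: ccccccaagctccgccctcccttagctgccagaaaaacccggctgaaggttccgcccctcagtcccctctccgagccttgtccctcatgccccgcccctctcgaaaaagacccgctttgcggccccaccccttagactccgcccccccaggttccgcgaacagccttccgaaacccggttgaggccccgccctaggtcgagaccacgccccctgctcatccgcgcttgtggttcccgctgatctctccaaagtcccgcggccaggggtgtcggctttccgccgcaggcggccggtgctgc
Galnt3: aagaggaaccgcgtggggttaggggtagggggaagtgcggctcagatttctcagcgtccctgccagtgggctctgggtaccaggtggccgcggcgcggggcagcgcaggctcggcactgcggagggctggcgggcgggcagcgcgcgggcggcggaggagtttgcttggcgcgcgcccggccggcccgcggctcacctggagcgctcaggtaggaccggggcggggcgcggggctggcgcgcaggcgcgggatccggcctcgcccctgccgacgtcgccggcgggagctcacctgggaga
Mgat5: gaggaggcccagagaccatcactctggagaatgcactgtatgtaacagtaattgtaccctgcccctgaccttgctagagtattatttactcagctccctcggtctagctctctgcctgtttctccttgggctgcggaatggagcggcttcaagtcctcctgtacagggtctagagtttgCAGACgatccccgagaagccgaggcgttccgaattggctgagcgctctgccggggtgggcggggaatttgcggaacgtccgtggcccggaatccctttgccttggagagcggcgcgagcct
Galnt6: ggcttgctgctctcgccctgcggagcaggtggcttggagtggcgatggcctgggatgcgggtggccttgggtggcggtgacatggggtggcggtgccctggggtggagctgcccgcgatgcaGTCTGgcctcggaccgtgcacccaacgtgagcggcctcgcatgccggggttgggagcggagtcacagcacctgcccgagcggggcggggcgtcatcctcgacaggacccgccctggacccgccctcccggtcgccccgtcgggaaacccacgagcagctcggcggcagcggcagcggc
Mgat4a: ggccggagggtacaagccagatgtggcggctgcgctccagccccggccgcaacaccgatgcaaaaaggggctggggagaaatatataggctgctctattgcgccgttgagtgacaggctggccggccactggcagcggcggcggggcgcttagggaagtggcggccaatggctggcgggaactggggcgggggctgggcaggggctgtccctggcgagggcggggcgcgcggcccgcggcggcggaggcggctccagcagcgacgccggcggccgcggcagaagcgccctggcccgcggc
The motif CAGAC, searched on both strands, occurred 1 time in the Mgat5 window and 1 time in the Galnt6 window, and 0 times in the other 3. It occurred in 49.6% of all 32851 promoter windows of this length. The palindromes GTCTAGAC and GGCGCC, which do not overlap the capitals, occurred in none of the 5 windows, and in 0.213% and 11.9% of all windows. The G and C content was 68.3% for B4galt1, 76.7% for Galnt3, 58.0% for Mgat5, 73.7% for Galnt6 and 74.3% for Mgat4a, against a median of 52.7% over all windows. Such matches describe these letters only.

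**Figure D3:**
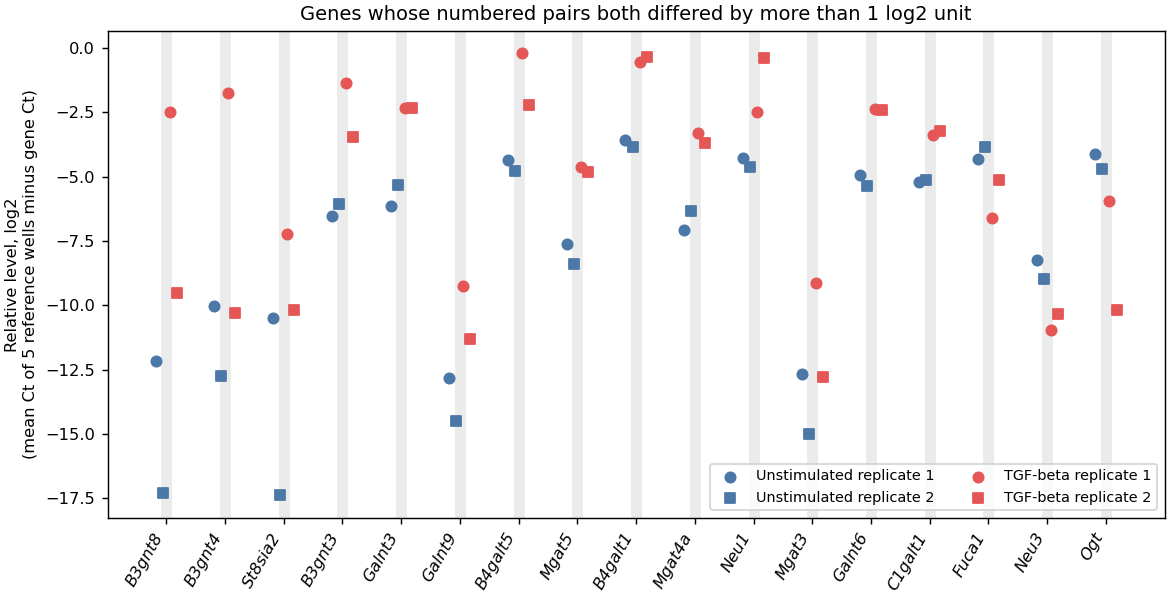
Relative log2 level (cycles from the average of the 5 reference wells) of the 17 genes whose pairs both passed 1 log2 unit, ordered by log2 fold change. Blue stands for unstimulated, red for TGF-beta, circles for replicate 1 and squares for replicate 2. Treated samples lie above unstimulated ones in B4galt1, Galnt3, Galnt6, Mgat4a and Mgat5 with little scatter, whereas B3gnt8, B3gnt4 and St8sia2 scatter by several units within a group.

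Enzymes that add galactose and polylactosamine were the list with the highest median of the 14. The list was drawn up with earlier results of these data known, so its rank is a description only. The median log2 fold change of its 7 members was 3.27 against 0.29 over all tested genes, and ran from 2.47 to 3.78 over the choices of reference, with 6 of 7 above 0 and 4 of 7 past 1 unit in both pairs, against 42 of 69 and 14 of 69 among all tested genes. The largest difference on the panel was in B3gnt8, which extends polylactosamine on highly branched N-glycans. B3gnt8 was detected at Ct 32.8 and 34.2 unstimulated and at 24.6 and 26.5 treated, and its relative levels were -12.18 and -17.29 against -2.49 and -9.52. The groups did not overlap, but the samples of each group were over 5 units apart, and its log2 fold change of 8.73 ± 3.19 had an adjusted p of 0.32. Within pairs it was 824-fold and 218-fold higher. B3gnt4, another polylactosamine enzyme, stood at -10.01 and -12.74 unstimulated and at -1.74 and -10.31 treated. Its treated level in replicate 1 was far above the other 3 samples, and its log2 fold change was 5.35 ± 3.30 (adjusted p = 0.62). B4galt5, which makes the lactose core of glycolipids, stood at -4.35 and -4.77 unstimulated and at -0.21 and -2.24 treated, a log2 fold change of 3.34 ± 0.85 (adjusted p = 0.16). B3gnt2, the main polylactosamine synthase, and B4galt3, a galactosyltransferase of N-glycans, lay near 0. Their pair differences were -0.37 and -0.51 for B3gnt2, and 0.11 and 0.01 for B4galt3. B4galt2, a further galactosyltransferase, differed by 0.66 in pair 1 and 4.05 in pair 2.

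Among the N-glycan branching enzymes, Mgat4a and Mgat5 were higher with TGF-beta, and Mgat1, Mgat2 and Mgat4b lay within 1 unit of 0 in both pairs. The 6 tested of 8 had a median of 1.58 (log2 fold change), which ran from 0.78 to 2.09 over the choices of reference. It was 0.54 without TGF-beta replicate 1 and 0.99 without unstimulated replicate 2. The list had 2 of 6 genes higher at an unadjusted p under 0.05 (Mgat4a and Mgat5, above), against 10 of 69 among all tested genes. It had 3 of 6 higher past 1 unit in both pairs, against 14 of 69. Mgat3, the remaining gene past 1 unit in both pairs, adds the bisecting GlcNAc. Mgat3 stood at -12.67 and -14.99 unstimulated and at -9.13 and -12.77 treated. Treated replicate 2 lay just below unstimulated replicate 1, so the groups overlapped, and its log2 fold change was 2.88 ± 1.62 (adjusted p = 0.59). Mgat1, which opens the path to complex N-glycans, differed by 0.26 and 0.31 in pairs 1 and 2, and Mgat2, which starts the next antenna, by 0.17 and -0.31. Mgat4b, the close relative of Mgat4a, differed by 0.12 and -0.53, where Mgat4a had 3.78 and 2.63.

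Of the GalNAc transferases, Galnt3, Galnt6 and Galnt9 were higher with TGF-beta in both pairs, Galnt1, Galnt2 and Galnt4 lay within 1 unit of 0 in both, and the other 5 tested members differed between the pairs. Of 17 on the panel 11 were tested, with a median log2 difference of 0.43 that ran from -0.38 to 0.94 over the choices of reference. At an unadjusted p under 0.05, 3 of the 11 were higher and 0 lower, against 10 higher and 1 lower among all 69 tested genes. The median was 0.01 without TGF-beta replicate 1 and 1.87 without TGF-beta replicate 2. Besides Galnt3 and Galnt6, the gene at that unadjusted threshold was Galnt9. Its Ct was 33.5 and 31.5 unstimulated and 31.3 and 28.3 treated, so the unstimulated wells lay within a few cycles of the limit of 35. Its relative levels were -12.84 and -14.51 unstimulated and -9.27 and -11.32 treated. The Galnt9 groups did not overlap, and its log2 fold change was 3.38 ± 1.04 (adjusted p = 0.22). Galnt1 and Galnt2, which are widely expressed initiators, differed by 0.47 and 0.38, and by 0.48 and -0.20. Galnt4 differed by -0.55 and -0.25. Galnt7, which acts on chains that already carry GalNAc, was higher by 3.01 in pair 1 and by 0.11 in pair 2. Galnt11 showed the reverse pattern, with -1.55 in pair 1 and 0.01 in pair 2 (log2 fold change -0.77 ± 0.69, adjusted p = 0.82). Galnt10 had Ct values of 34.3 and 27.8 unstimulated and 39.0 and 29.7 treated. With the treated value of replicate 1 entered as 35 its pairs differed by 0.74 and -1.91, so the positive value of pair 1 rests on that limit. Its log2 fold change was -0.59 ± 1.11 (adjusted p = 0.90), -2.57 with late values entered as 40 and -2.70 with the series matrix values, and it was 0.83 without unstimulated replicate 2. Galnt12 was past Ct 35 in replicate 1 of both groups and differed by -1.85 in pair 2. Galntl6 was past Ct 35 in both unstimulated samples, at 41.1 and 35.3, and was detected at 31.8 and 34.9 in treated cells, so its differences of 4.64 and 0.07 are lower bounds. It met the detection filter through its treated samples alone. With a Ct under 35 required in all 4 samples, 8 genes of the list remained and their median was 0.99.

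In the enzymes that extend the O-glycan core, C1galt1 and B3gnt3 were higher and the other tested members lay near 0. C1galt1 forms the core 1 disaccharide, and stood at -5.22 and -5.15 unstimulated and at -3.39 and -3.23 treated. Its difference was almost the same in both pairs (1.84 and 1.93), with a log2 fold change of 1.88 ± 0.40 (adjusted p = 0.12). C1galt1c1 encodes the chaperone that C1galt1 protein needs, and differed by -0.10 and -0.01. B3gnt3, which extends core 1, stood at -6.53 and -6.06 unstimulated and at -1.36 and -3.48 treated, a log2 fold change of 3.88 ± 0.89 (adjusted p = 0.13). Gcnt1, which makes the core 2 branch, differed by 0.01 and -0.40. It followed the replicate number instead, at -4.64 (unstimulated) and -4.63 (treated) in replicate 1 and at -2.78 and -3.18 in replicate 2.

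Sialyltransferases that act on common N- and O-glycans differed little, while St8sia2 and St8sia6, of polysialic and oligosialic acid, scattered widely between samples. The 6 tested of 8 had a median of 0.66 (from -0.14 to 1.17 over the choices of reference). Of these, 0 had an unadjusted p under 0.05, against 11 of 69 among all tested genes. The median was -0.13 without TGF-beta replicate 1 and 1.39 without TGF-beta replicate 2. St8sia6 met the detection filter through its treated samples alone. With a Ct under 35 required in all 4 samples, which leaves out St8sia6, the median was 0.31. St3gal1, which caps core 1 O-glycans, differed by 0.08 and -0.15 in pairs 1 and 2, St3gal2 by 0.47 and 0.15, and St6gal1, which caps N-glycans, by -0.27 and -0.12. St8sia2, a polysialic acid synthase, had Ct values of 31.1 and 34.3 unstimulated and 29.3 and 27.2 treated, so unstimulated replicate 2 lay just under the limit of 35. Its relative levels were -10.50 and -17.39 unstimulated and -7.25 and -10.18 treated. The groups did not overlap, but the unstimulated samples were farther apart than the means of the groups, and its log2 fold change was 5.23 ± 2.75 (adjusted p = 0.55). St8sia4, the other polysialic acid synthase, differed by 1.75 and 0.29. St8sia6 was at Ct 37.2 and 38.7 unstimulated, beyond the limit of 35, and at 29.3 and 34.2 treated. Taking 35 for the unstimulated cells, it was higher at least 137-fold in pair 1 and at least 1.80-fold in pair 2 (log2 fold change 3.98 ± 3.87, adjusted p = 0.82). Without TGF-beta replicate 1 its log2 fold change was -0.99. That value sets treated replicate 2 (-17.19) against the limits entered for the unstimulated samples (-14.37 and -18.04), so its sign rests on those limits.

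The 2 tested sialidases, which remove sialic acid, had differences of opposite sign. Neu1, the lysosomal sialidase, stood at -4.28 and -4.63 unstimulated and at -2.51 and -0.39 treated, a log2 fold change of 3.0 ± 0.87 (adjusted p = 0.20). Neu3, the sialidase of the plasma membrane, stood at -8.23 and -8.99 unstimulated and at -10.97 and -10.34 treated, a log2 fold change of -2.04 ± 0.54 (adjusted p = 0.16). Neither gene's groups overlapped. Neu3 was the single lower gene at an unadjusted p under 0.05.

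Ogt, the X-linked gene for the enzyme that places O-GlcNAc on nuclear and cytosolic proteins, had the most negative log2 fold change of the tested genes. It stood at -4.14 and -4.71 unstimulated and at -5.96 and -10.17 treated. Both treated samples were lower, by 3.53-fold in pair 1 and 43.9-fold in pair 2, and this gap between the treated samples left a log2 fold change of -3.64 ± 1.60 (adjusted p = 0.41).

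Lysosomal glycosidases other than Neu1, which was counted with the sialidases and was higher (log2 fold change 3.0), leaned lower. These enzymes break glycans down. All 8 were tested, with a median log2 difference of -0.45 (from -1.25 to 0.06 over the choices of reference), and the median was -0.80 in pair 1 and 0.04 in pair 2. Of the 8, 6 were below 0, against 27 of 69 among all tested genes, and 0 had an unadjusted p under 0.05, against 11 of 69. Fuca1, the lysosomal fucosidase, stood at -4.33 and -3.85 unstimulated and at -6.63 and -5.15 treated. Its groups did not overlap, and its log2 fold change was -1.80 ± 0.69 (adjusted p = 0.34). Hexa, a subunit of beta-hexosaminidase, differed by -0.75 and -0.32. Man2b1, the lysosomal alpha-mannosidase, differed by -0.85 and -0.09, and Manba, the beta-mannosidase, by -1.25 and 0.16. Glb1, the beta-galactosidase, differed by 0.51 and 0.22.

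Most enzymes of the early secretory pathway lay near 0. The 6 ER and Golgi mannosidases had a median of -0.02 (from -0.82 to 0.49 over the choices of reference). Of the 6, 0 had an unadjusted p under 0.05, against 11 of 69 among all tested genes. Man1c1, a Golgi mannosidase, was lower in both pairs (-0.56 and -1.45), with a log2 fold change of -1.01 ± 0.59 (adjusted p = 0.62). Man2a1, the Golgi mannosidase that acts after Mgat1, differed by -0.19 and 1.74. The 7 tested genes of ER glucose trimming and quality control had a median of 0.36 (from -0.44 to 0.87). Ganab and Prkcsh, the subunits of glucosidase II, differed by 0.29 and 0.11 and by 0.59 and 0.14, and Edem1, which directs misfolded glycoproteins to degradation, by -0.51 and -0.23. Uggt1, which puts glucose back on misfolded glycoproteins, was the exception. It stood at -4.58 and -5.25 unstimulated and at -7.03 and -2.04 treated, so that treated replicate 1 was the lowest of the 4 samples and treated replicate 2 the highest. Its pairs differed by -2.45 and 3.21, and no direction can be given.

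The remaining lists were small and close to the panel median. The 3 genes of mannose 6-phosphate tagging had a median log2 fold change of 0.00, the 3 O-mannose genes 0.40, the 3 O-fucose genes 0.38 and both fucosyltransferases 0.15, and each of these medians changed sign over the choices of reference. None of these 11 genes had an unadjusted p under 0.05, against 11 of 69 among all tested genes. B3glct, which adds glucose to O-fucose on thrombospondin repeats, was the highest of them, with differences of 1.27 and 0.93. Fut8, the core fucosyltransferase, differed by -0.09 and 0.41.

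**Figure D4:**
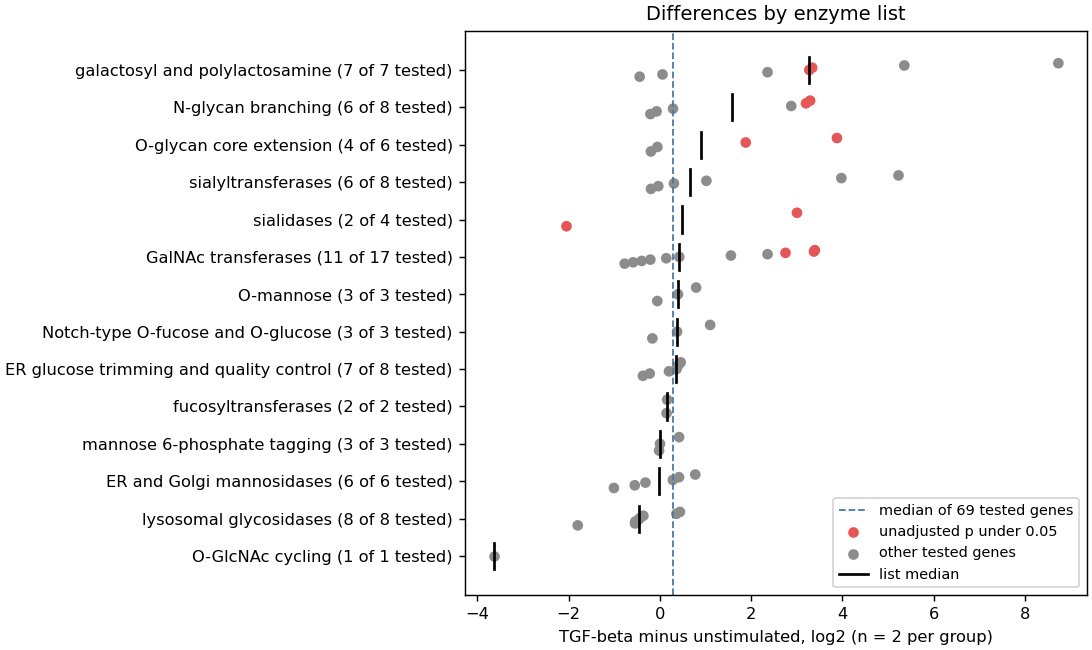
Log2 fold change of TGF-beta over unstimulated cells (x axis, n = 2 per group) for the 69 tested genes, by enzyme list (y axis). Each point is a gene, red at an unadjusted p under 0.05, black bars are list medians and the dashed line is the median of all tested genes (0.29). The galactosyl and polylactosamine list has its median at 3.27, and the lysosomal glycosidase list, which leaves out Neu1, has its median at -0.45.

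Of the 84 genes, 15 were not tested. Galnt14, Gcnt3, Neu4 and Uggt2 had a Ct under 35 in fewer than 2 samples. Another 11 genes were left out because the third file of a group departed from the scaled mean of the other files, or could not be compared with it, which puts the values of those wells in doubt. They are A4gnt, Galnt5, Galnt13, Galnt16, Galntl5, Mgat4c, Mgat5b, Neu2, St6galnac1, St8sia3 and Wbscr17. Neu2, the cytosolic sialidase, shows the doubt best. Its Ct was 41.1 and 33.8 unstimulated and 23.8 and 34.5 treated, whereas the third treated file held 31.9 and the scaled mean of the first treated files was 27.0. Galnt5 had Ct values of 38.3 and 34.0 unstimulated and 29.9 and 27.9 treated, but the third treated file, at 28.9, was later than the scaled mean of 26.8.

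The authors' deposited table of fold changes was set against the sample files. Its first TGF-beta column equalled the fold of pair 1 in 79 of 83 genes, within 0.006 or 0.05%, when the mean of all 5 reference wells was used and Ct capped at 35. The header of the authors' deposited table names beta-actin as the reference instead. Its second column equalled the same pair 1 with well H03 alone in 79 of 83 genes, so the first 2 columns are the same samples under different references. The third column equalled the mean of the pair 1 and pair 2 folds with all 5 reference wells in 75 of 83 genes, against 6 of 83 with the Actb well alone. The authors' deposited table thus combined treated and unstimulated samples in the same pairs as used here, and holds 2 measured pairs in 3 columns.

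The table also carried a value that is not a measured difference. In 14 genes the first column of the authors' deposited table reads 2.71, which equals the reference shift of 1.44 log2 units between the first samples when both Ct values are capped at 35. In 4 of these (Galnt5, Galnt16, Galntl5 and Neu2) the sample files hold a Ct under 35 in TGF-beta replicate 1, so capping does not give that value for them. Genes that were late in all 4 samples, such as A4gnt and Neu4, read 1.86 in the third column of the authors' deposited table for the same reason. All 4 genes that departed in the first column (Galnt5, Galnt16, Galntl5 and Neu2) and 7 of 8 in the third were among the 11 genes left out. For Neu2 the authors' deposited table lists 2.71 where the sample files give a pair 1 fold of 6431. The remaining gene was Gnptab, which encodes a subunit of the phosphotransferase of mannose 6-phosphate tagging. The third column of the authors' deposited table lists 0.025 for it, and the files give 1.03.

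**Figure D5:**
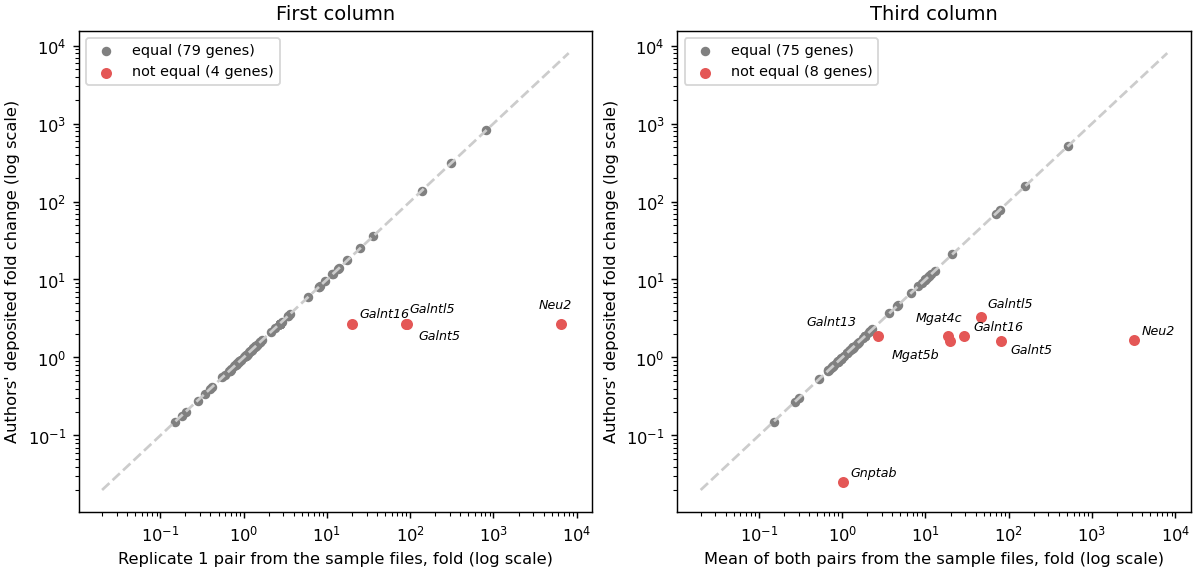
Fold change of TGF-beta over untreated DC2.4 cells in the authors' deposited table (y axis, log scale) against the fold computed from the sample files with 5 reference wells (x axis, log scale), for 83 genes. The left panel sets the first column against pair 1, the right panel the third column against the mean of both pairs, and red points are the 4 and 8 genes that were not equal. The grey points lie on the dashed line of equality, and Neu2 lies farthest from it to the right.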

How the data were processed

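The authors' deposited files give a Ct for each well of a sample, with a baseline of cycles 3 to 15 and a threshold of 0.2 per the file headers. Wells were named by matching Ct minus the H01 well to the authors' deposited series matrix, a log2 scale, within 0.002 cycles. All 84 symbols were found in RefSeq, 1 as a synonym. The authors' deposited fold changes are a ratio of test over control. The third file equalled the mean of the other 2 divided by 1.1 in 86 of 94 wells (unstimulated) and by 1.08 in 85 of 93 (TGF-beta). Genes departing from this were left out, as were genes with a Ct under 35 in fewer than 2 of the 4 samples.

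Levels were tested with limma 3.58.1 in R 4.3.3 (lmFit, eBayes, two-sided), Benjamini-Hochberg adjusted over 69 genes, and the code was tested on simulated data. Tables and tests of single wells used scipy 1.17.1 and pandas 2.3.3 in Python 3.11.15, and plots matplotlib 3.10.9. Members and lists were chosen with earlier results of these data known. Full statistics are given for genes with an unadjusted p under 0.05, the 6 largest differences per direction, and genes with both pairs past 1 log2 unit; other genes are given by their values. RNA input was 50 to 100 ng per the labels' protocols. How many cells lie behind a Ct is unknown. No per-sample column was left unused. The files name well H01 as Actb, and the other reference and control wells are called by the manufacturer's usual layout. Alternatives changed the reference, the late Ct limit, filter, samples, variance model and source. The values of 1 lysosomal gene are not reported here.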

Additional observations from a re-analysis of the deposited data

Results flagged for a closer look

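Wells outside the tested comparison had a Ct under 35 in both measured treated samples but in neither measured unstimulated sample. Galnt16 had a Ct of 32.1 in TGF-beta replicate 1 and 29.8 in TGF-beta replicate 2, and Galntl5 of 30.0 and 33.0, while both genes were past Ct 35 in both unstimulated samples. Both are among the 11 genes left out because the third file of a group departed from the scaled mean. For Galnt16 the third treated file held 39.9, past 35, where the scaled mean was 28.7. Galntl5 in treated replicate 2 had a relative level of -16.06, below the -14.37 entered for unstimulated replicate 1, so its groups overlapped. In the authors' deposited table their first column reads 2.71, the value of genes that were late in both samples of pair 1, and the sample files give 19.9-fold for Galnt16 and 87.9-fold for Galntl5. Which of the values is right was not tested.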

How the results depend on the processing

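Under the alternatives other than leaving out a sample, the count of genes past the adjusted threshold was 5 with a Ct under 35 required in all 4 samples, 6 with the spread shared over the 8 measured samples of 4 groups, 7 with a trend and robust prior, 13 with all 6 deposited files entered, and 0 in the others. The 5 genes were B4galt1, Galnt3, Galnt6, Mgat4a and Mgat5, and these were also among the 6, the 7 and the 13. The fit over 8 samples added splenic and tumor dendritic cells of the series. For it the wells of a tumor sample were realigned and some wells of a splenic sample were left out. Leaving out each sample, with the lone sample of a group assumed to vary like the other group, gave 0 to 16. The count at the unadjusted threshold was 19 with all 6 files, and 5 to 21 with a sample left out. The third files are computed from the others and add no sample. The median of the tested genes was 0.16 with the H01 well alone or the series matrix, 0.80 with the H02 well, 0.00 with the H03 well and -0.52 with the panel mean, and 0.05 to 0.47 with a sample left out. Signs turned in 3 genes when a sample was left out: Galnt10 ranged from -2.01 to 0.83 (-2.57 with late Ct set to 40 and -2.70 with the series matrix), Galnt11 from -1.55 to 0.01 and St8sia6 from -0.99 to 8.94. For St8sia6 the negative value rests on the limit of 35 entered for the unstimulated samples. The other 18 genes given with full statistics kept their sign in each alternative. Same-numbered samples deviated together from their group means (r = 0.64 across genes), and 2 pairs cannot establish a pairing. With the replicate block 0 genes passed and 15 had an unadjusted p under 0.05, 13 higher and 2 lower. With 2 samples a group, large differences could be missed as well as small ones. On simulated data, with noise drawn independently for each sample at the residual spread of each gene, 44.6% of changes of 3 log2 units passed the adjusted threshold. For changes of 2 units this share was 23.6%, and for changes of 1 unit 1.86%. The simulation held no deviation shared by replicate number and changed only part of the genes, so these shares need not hold for these samples. Genes near Ct 35 have only bounds.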
